A study of Caenorhabditis elegans with 3 samples.

Results

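The F-box, MATH and BTB domain genes described here are those whose deposited symbol starts with fbxa-, fbxb-, fbxc-, math-, bath- or btb-. In tables of peaks of histone H3 trimethylated at lysine 4 (H3K4me3) they numbered 4 of 94 gene symbols in F11 and 20 of 847 in F14', which is 23 different genes, since math-18 was listed in both. They were listed for 4 of 95 unique peaks in F11 and 20 of 639 in F14'. Whole wild-type Caenorhabditis elegans were grown on agar plates with Escherichia coli OP50 at 20 °C, and chromatin was precipitated with an H3K4me3 antibody and sequenced. The control was kept in K-medium without drug, F11 was exposed to the antibiotic sulfamethoxazole in K-medium from the egg for 6 days in each of 11 consecutive generations, and F14' is labelled as the first progeny of that line raised without it. Each group was 1 library, so no value below has a replicate check and no p-value was computed. All intervals are exact (Clopper-Pearson) 95% binomial intervals that cover counting error only. The labels number F14' as generation 14, and what happened in the generations between is not described in them. No peaks of the control alone were used.

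F-box proteins are the substrate receptors of SCF ubiquitin ligases. The F-box binds a Skp1-type adaptor, which in this nematode is one of the SKR proteins, and the rest of the protein holds the target that the cullin complex marks with ubiquitin. MATH and BTB domains do the same job for the cullin CUL-3: the BTB domain binds the cullin and the MATH domain the target, and BATH proteins carry both. These families are greatly expanded in Caenorhabditis elegans, lie in tandem clusters and change quickly between related nematodes. H3K4me3 itself is found around the starts of transcribed genes.

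The 4 family peaks of highest fold in F14' were assigned to fbxa genes, whose proteins pair the F-box with an FTH domain, while the remaining 6 fbxa peaks held 270 to 324 tags per kb and those of the other subfamilies 269 to 350. In F14', 10 fbxa, 7 fbxb, 2 math and 1 bath gene were assigned a peak, and in F11, 2 fbxb, 1 fbxc and 1 math gene. The RefSeq gene table (assembly WBcel235) lists 505 members, 94 of them pseudogenes. Of these, 3.96% (2.44 to 6.05%) had a peak in F14', against 2.44% of all protein-coding genes and pseudogenes, and 0.792% (0.216 to 2.02%) in F11, against 0.315%. Both intervals hold this background share, which counts the members too. Among the 21387 other genes the share was 2.41% in F14', just under the lower bound of the members' interval. In F11 it was 0.304%, inside that interval. The members are not independent, since 3 of the 20 F14' peaks were each listed for a pair of members, and the intervals do not allow for this. By subfamily, the F14' share was 4.50% of 222 fbxa genes (2.18 to 8.13%) and 6.19% of 113 fbxb genes (2.53 to 12.3%). It was 4.08% of 49 math genes (0.498 to 13.98%) and 2.33% of 43 bath genes (0.0589 to 12.3%). None of the 56 fbxc genes had an F14' peak, which allows a share of up to 6.38%, and none of the 22 btb genes had a peak in either table (up to 15.4%). These intervals overlap and are wide, since few genes had a peak, so they cannot show whether the subfamily shares differ.

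**Figure D1:**
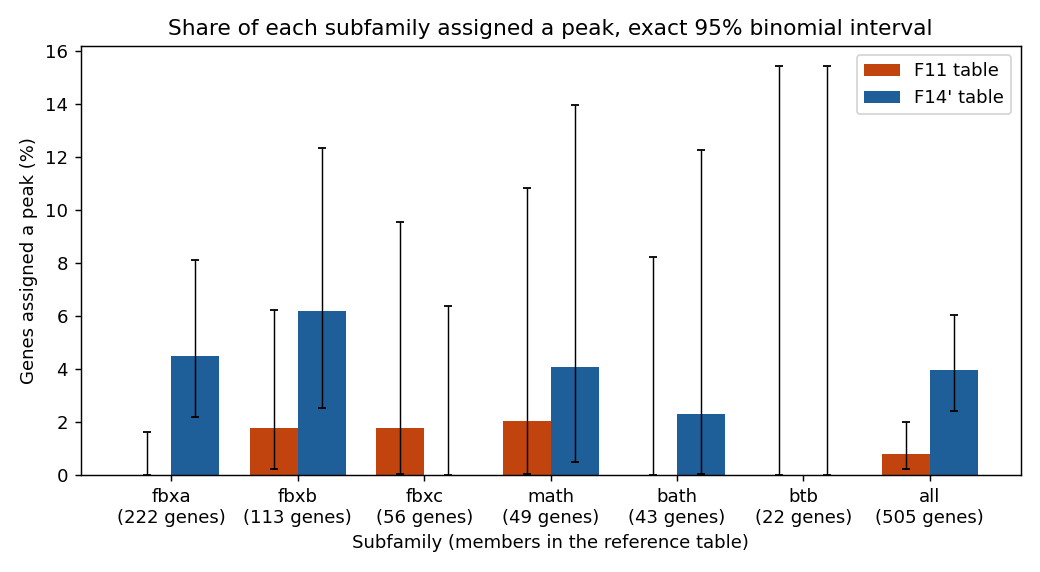
Bars give the percentage of each subfamily's reference genes that were assigned a peak in the F11 and F14' tables, and error bars the exact 95% binomial interval. The fbxa and fbxb shares in F14' were 4.50% and 6.19%, and all subfamily intervals of one table overlap.

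The peak assigned to fbxa-55 was the most densely tagged of all 639 F14' peaks. It lay on chromosome III (930633 to 932247, build ce10) and held 12676 tags in 1615 bp, which is 7849 tags per kb. Its deposited fold over background was 27.9, rank 3 of the table, and its score, defined as -10 times the base-10 logarithm of p, stood at the usual ceiling of 3100. The peak did not touch the gene. The fbxa-55 gene runs on the minus strand from 936056 to 933573, and the peak began 1326 bp past its 3' end. The next gene on that side in the RefSeq order is pef-1, which encodes a protein phosphatase with EF-hand motifs. F11 listed no peak within 367 kb of this interval. A missing peak does not show that tags were few there, since tags outside peaks are not listed.

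A second peak just past a gene's 3' end was that of fbxa-190 on chromosome X (1374623 to 1375875). It held 966 tags (771 per kb) with a fold of 12.7 and a score of 1929, and began 76 bp after the end of the gene. If the score is read as the Poisson probability of all 966 tags, the background that gives it is a mean of 311 tags. The whole peak then held 3.10 times its computed background. That reading of the score was not tested, and this ratio is a different measure from the deposited fold. In the other 17 F14' peaks of the family with a score under the ceiling, this ratio lay between 1.14, at fbxb-16, and 1.65, at fbxa-208.

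The strongest peaks that covered a member's start as deposited were those of fbxa-208 and fbxa-75, both in the left part of chromosome III. The fbxa-208 peak (1250151 to 1253635) spanned the whole deposited gene model of 761 bp, with 2334 tags, 670 tags per kb and a fold of 5.64. Its summit lay 1628 bp downstream of that start and past the end of that model. These placements rest on the deposited gene model, which may not match the gene that RefSeq now lists under this symbol, between srz-8 and fbxa-78, so whether the peak covers the start of fbxa-208 is uncertain. The fbxa-75 peak (1299194 to 1304018) was 4825 bp wide and held 24119 tags (4999 per kb), with a fold of 4.61 and a score of 3100. FBXA-75 is known to act with CUL-6 in the intracellular pathogen response that raises thermotolerance. The peak reached 313 bp into the gene, while its summit lay 3903 bp upstream, on the side of the neighbouring gene fbxa-28.

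These 4 fbxa peaks stand apart from the rest of the family in tags per kb. Each held at least 670 tags per kb, and the other 16 F14' family peaks held between 269 and 350. Among all 639 F14' peaks these 4 ranked 1, 13, 97 and 107 in tags per kb, so many peaks of other genes were as dense. Of the 20 peaks, 3 reached a fold of 5, against 15.2% of all F14' peaks, 5 reached a score of 100, against 37.4%, and 17 reached a fold of 2, against 78.4%. The 2 fold shares are near those of the whole table. The score share of 25% is lower, with a wide interval (8.66 to 49.1%) that holds the 37.4%. In F11, 1 of the 4 family peaks reached a fold of 2, against 53.7% of all F11 peaks, and 0 a score of 100, against 28.4%. The family's median fold in F14' was 2.31 and that of the other 619 peaks 2.30. The medians of tags per kb were 304 and 301, and those of width 1706 and 1795 bp.

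**Figure D2:**
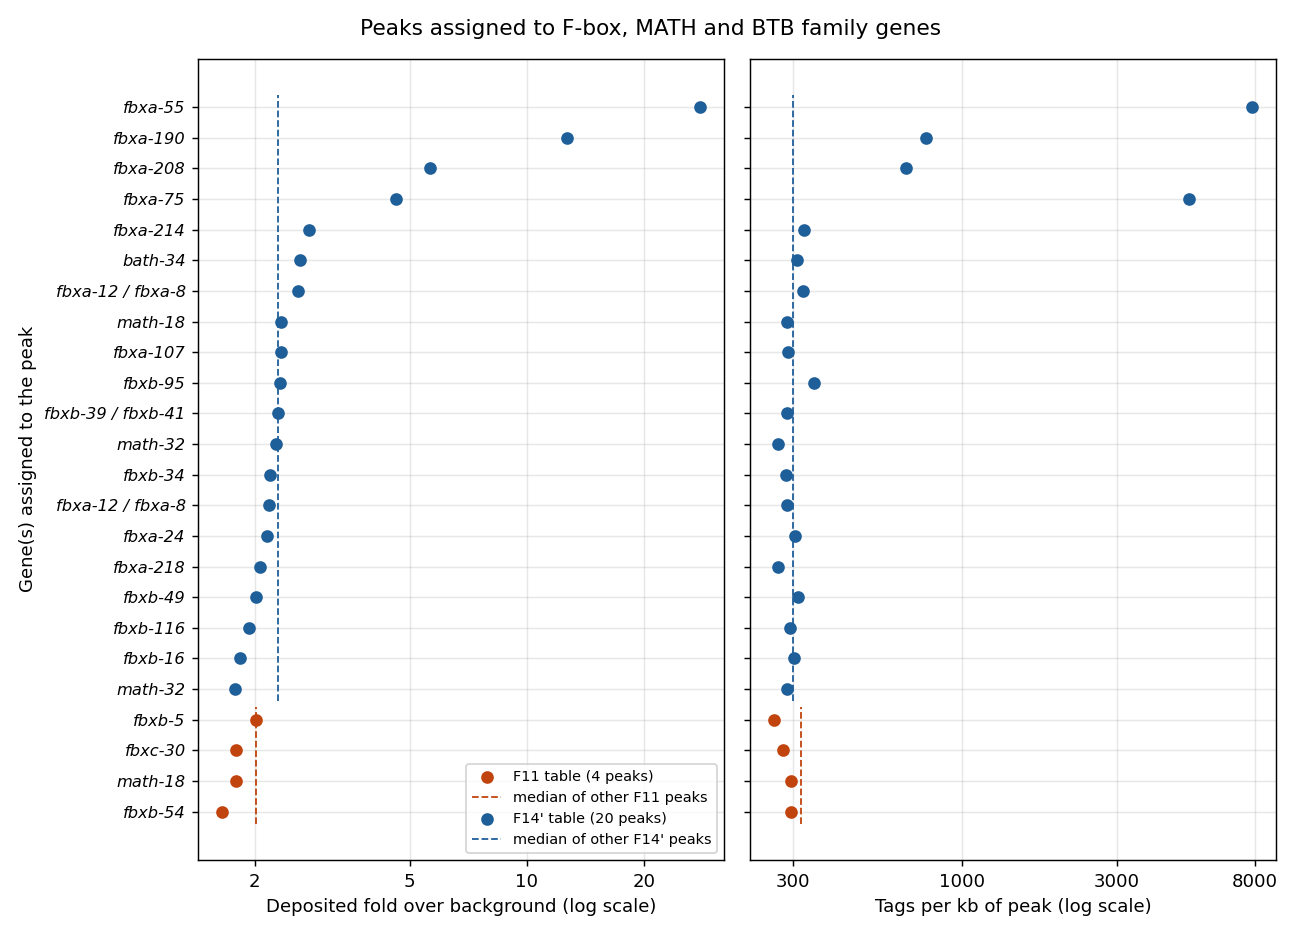
Points are the deposited fold (left) and the tags per kb (right) of each peak assigned to a family member, both on log axes, and dashed lines are the medians of all other peaks of the same table. The fbxa-75, fbxa-208, fbxa-190 and fbxa-55 peaks lie to the right, and the remaining 16 F14' peaks hold 269 to 350 tags per kb.

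The pair fbxa-8 and fbxa-12 was flanked by peaks on both sides of a shared start region. The genes are transcribed away from each other on chromosome III, from starts 70 bp apart (2219716 for fbxa-8 on the minus strand, 2219786 for fbxa-12 on the plus strand), and RefSeq lists fbxa-8 as a pseudogene. One F14' peak (2217915 to 2219641) lay over fbxa-8, with 555 tags, a fold of 2.59 and a score of 119. The other (2220452 to 2221421) lay inside fbxa-12, with 280 tags, a fold of 2.17 and a score of 34. The peaks were 810 bp apart and the starts fell in that gap, 75 bp from the peak over fbxa-8. The authors' table lists each peak with both genes. The 280 tags are the lowest count of any F14' peak.

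**Figure D3:**
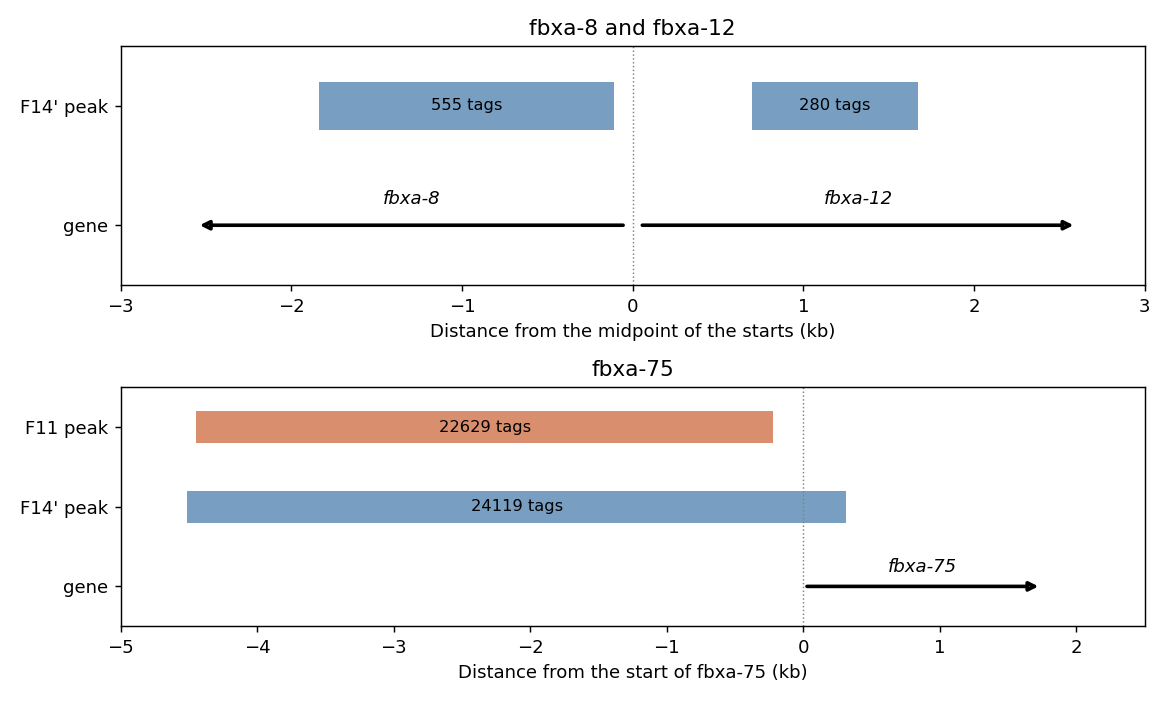
Arrows are genes from start to end and boxes are peaks with their tags, placed by distance in kb from the midpoint of the fbxa-8 and fbxa-12 starts (top) and from the fbxa-75 start (bottom). The starts of fbxa-8 and fbxa-12 lie in the 810 bp between their peaks, and the F11 and F14' peaks beside fbxa-75 hold 22629 and 24119 tags.

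The other fbxa peaks had values near those of non-family F14' peaks, whose medians were 301 tags per kb and a fold of 2.30. The fbxa-24 peak on chromosome II (3816299 to 3818268) covered the whole 707 bp gene and its start, with 602 tags and a fold of 2.15. The fbxa-218 peak on chromosome III (12439197 to 12440880) lay within the gene, over 84.2% of it, with 454 tags and a fold of 2.06. On chromosome V, the fbxa-214 peak (389 tags, fold 2.76) was centred 2533 bp upstream of its gene and the fbxa-107 peak (472 tags, fold 2.33) 3169 bp upstream. Neither of these upstream peaks touched its gene. Tags per kb ranged from 270 at fbxa-218 to 324 at fbxa-214.

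The genes of the F-box B group, fbxb, had their peaks mostly over the genes themselves and all at low fold. In F14', 4 of the 6 fbxb peaks spanned the start of a member, those of fbxb-34, fbxb-41, fbxb-49 and fbxb-16. The fbxb-34 peak (chromosome II, 587235 to 588983, 499 tags, fold 2.19) covered the whole gene. So did the fbxb-16 peak (1649988 to 1652266, 687 tags, fold 1.83) and the fbxb-41 peak (1041332 to 1042424, 315 tags, fold 2.30). The last was also listed for fbxb-39, whose start lies 1307 bp away from its centre and which it does not touch. The fbxb-49 peak (1568286 to 1569684, 435 tags, fold 2.01) was also listed for the neighbouring gene K05F6.8. The fbxb-116 peak on chromosome V (675 tags, fold 1.93) lay over 72.4% of its gene without reaching the start, and the fbxb-95 peak on chromosome II (1271 tags, fold 2.32) began 954 bp past the gene's end. The 6 scores ran from 34.6 to 82.7.

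F11 added 2 fbxb genes, both on chromosome II and neither with an F14' peak. The fbxb-54 peak (1554630 to 1557595) covered its whole gene and held 876 tags (295 per kb), with a fold of 1.65 and a score of 35.4. The fbxb-5 peak (1721863 to 1724173) covered 51.2% of its gene with the start and held 606 tags (262 per kb), with a fold of 2.02 and a score of 40.3. Their nearest F14' peaks were 10.7 kb away, at fbxb-49, and 6.52 kb away, at ceh-82. The only fbxc gene in either table was fbxc-30 in F11 (918842 to 920997, 605 tags, fold 1.79, score 42.5), whose peak lay over the 3' part of the gene and beyond, covering 32.5% of it. The nearest F14' peak was 15.1 kb away. The F11 table gives the fbxb-54, fbxb-5 and fbxc-30 peaks a false discovery rate of 100%.

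Among MATH and BATH genes, math-18 was the only member of any subfamily listed for a peak in both tables. On chromosome II the F11 peak (2156710 to 2158412) held 506 tags and the F14' peak (2156670 to 2158400) 498, or 297 and 288 tags per kb. The folds were 1.79 and 2.34 and the scores 49.2 and 52.2. Both peaks lay past the 3' end of math-18, beginning 1654 and 1614 bp after it, and the next gene in the RefSeq order is C33C12.11. The F14' peaks of math-32, which RefSeq lists as a pseudogene, were both upstream of it and 4101 bp apart. One (419 tags, fold 1.78) was centred 1775 bp from its start, and the other (602 tags, fold 2.27) 7720 bp away, where it was also listed for the homeobox gene ceh-84, whose start is 2109 bp from the centre, and for F59H6.2. The bath-34 peak on chromosome I (354 tags, fold 2.61, score 64.5) began 426 bp past the end of its gene.

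The intergenic class names peaks on the 3' side of the assigned gene. In both tables every row classed as intergenic, 30 in F11 and 88 in F14', had the peak centre past the 3' end of the assigned gene, and every upstream row had it before the start. Promoter rows mixed the sides, and of 710 such rows in F14' 322 had the centre before the start and 188 past the gene's end. The 5 intergenic family peaks in F14' (fbxa-55, fbxa-190, fbxb-95, math-18 and bath-34) and the 2 in F11 (fbxc-30 and math-18) were thus peaks on the 3' side. They made up 5 of 20 F14' family peaks (25%, 8.66 to 49.1%), against 79 of 619 other peaks (12.8%, 10.2 to 15.7%), and the intervals overlap. Promoter peaks, defined by the authors within 2 kb of a start on either side, were 11 of 20 (55%, 31.5 to 76.9%) against 373 of 619 (60.3%, 56.3 to 64.1%). Peaks that spanned an assigned start as deposited, with fbxa-208 counted, were 7 of 20 (35%, 15.4 to 59.2%) against 222 of 619 (35.9%, 32.1 to 39.8%). In F11, 2 of 4 family peaks spanned a start (interval 6.76 to 93.2%) against 13 of 91 others (14.3%, 7.83 to 23.2%).

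**Figure D4:**
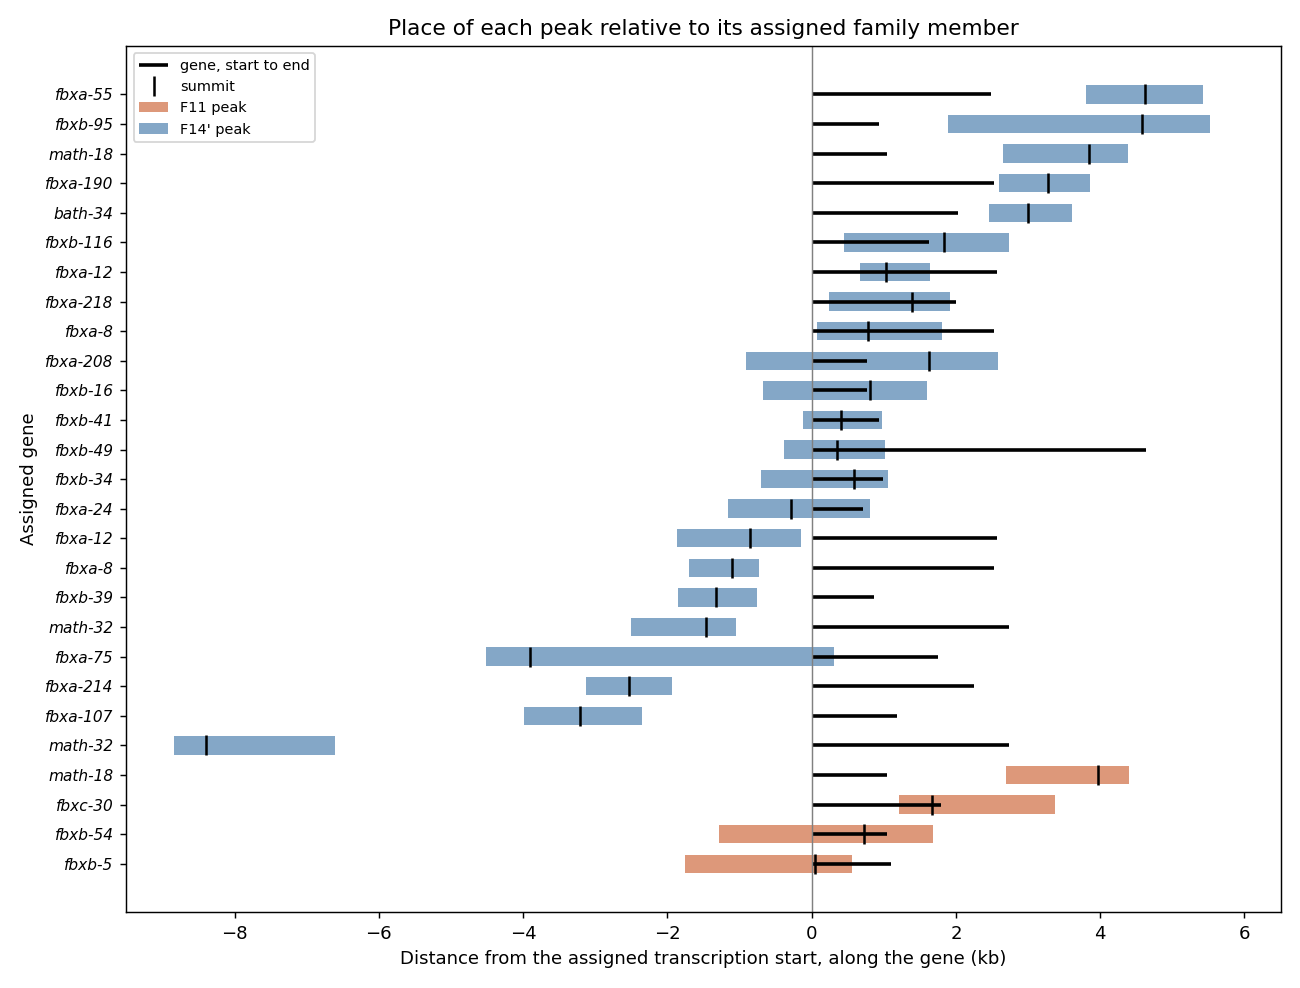
Boxes are peaks, black lines the assigned genes from start to end and ticks the summits, by distance in kb along the gene from its start at 0. Peaks of fbxa-55, fbxb-95, math-18, fbxa-190 and bath-34 lie past the gene's end, and 7 F14' peaks and 2 F11 peaks span the start.

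**Figure D5:**
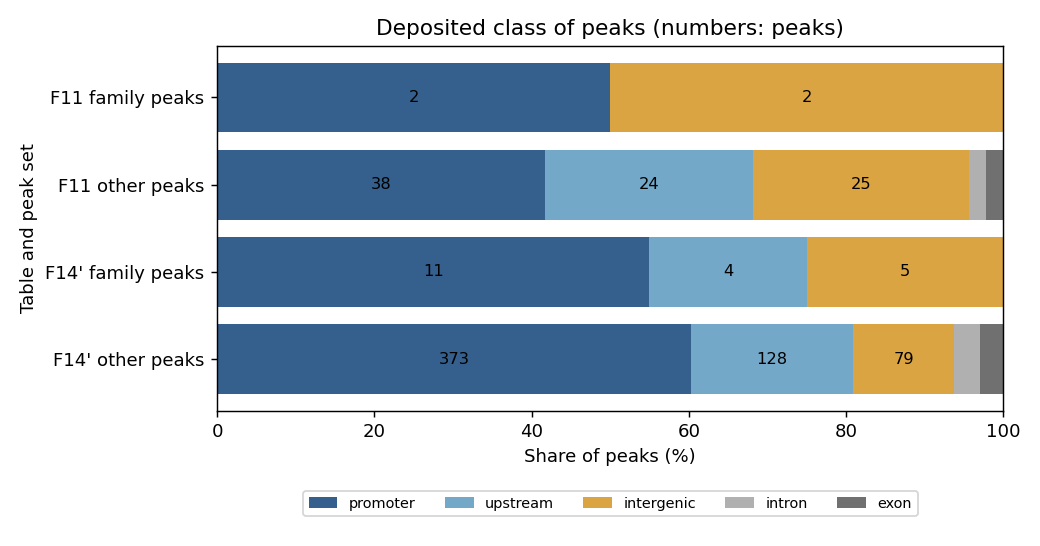
Stacked bars give the share of peaks in each deposited class for family peaks and for all other peaks of the F11 and F14' tables, with the number of peaks in the larger segments. Promoter peaks were 11 of 20 family peaks and 373 of 619 others in F14', and the intergenic class was 5 of 20 and 79 of 619.

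The family peaks lay mostly on the chromosome arms that hold the family. Of the 505 reference members 222 are on chromosome II, 113 on V, 87 on III, 29 on I and 23 on X. Of the 20 F14' peaks 9 were on chromosome II, 6 on III, 3 on V and 1 each on I and X. All 4 F11 peaks were on chromosome II, between 918842 and 2158412, inside the stretch of the F14' peaks there (587235 to 3818268). Chromosome IV, with 31 members, had no family peak, which allows a share of up to 11.2% of them. None of the 20 F14' peaks lay in the middle 33% of its chromosome (up to 16.8%), against 111 of 619 other peaks (17.9%, 14.99 to 21.2%). Only 18 of the 505 members (3.56%) start in that middle part, against 37.0% of other protein-coding genes and pseudogenes.

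The share of genes assigned a peak had overlapping intervals for the family and for the genes beside it. Of 3110 non-member genes within 10 places of a member in the RefSeq order, 97 had an F14' peak (3.12%, 2.54 to 3.79%), against 2.29% (2.08 to 2.51%) of 18277 genes farther away and 3.96% (2.44 to 6.05%) of the members. On chromosome II the members' share was 4.05% (1.87 to 7.56%) and that of their close non-member neighbours 4.48% (3.16 to 6.15%). On chromosome III these shares were 6.90% (2.57 to 14.4%) and 4.68% (2.84 to 7.21%). Genes farther away had F14' shares of 2.304% on II and 2.66% on III. On X the close neighbours' share was also the higher, 4.17% against 0.974% farther away. It was the lower, with overlapping intervals, on V (1.96% against 2.54%), I (1.28% against 2.51%) and IV (2.11% against 2.503%). The higher F14' share of close neighbours over all chromosomes was thus not seen on each of them. In F11, 0.740% of the close neighbours had a peak (0.469 to 1.11%), against 0.230% of genes farther away (0.166 to 0.310%) and 0.792% of the members. Members with a peak stood directly beside another member in 15 of 23 cases (65.2%, 42.7 to 83.6%), and members without one in 297 of 482 (61.6%, 57.1 to 66.0%). The labels do not say how tags that fit several near-identical family copies were placed, and the part of such tags in these values was not tested.

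Set side by side, the tables shared 2 family regions. Besides math-18, the fbxa-75 peak of F14' overlapped an F11 peak (chromosome III, 1299258 to 1303483) that the authors' table assigns to the noncoding RNA gene anr-53. That F11 peak held 22629 tags (5355 per kb, fold 3.71, score 1024) and the F14' peak 24119 (4999 per kb, fold 4.61). By the untested reading of the score used for fbxa-190, the computed background of the F11 peak was 19543 tags. Its tags were 1.16 times that background. The score of the F14' peak stood at the ceiling, so no such ratio was computed for it. The F11 peak ended 222 bp before the start of fbxa-75, which the F14' peak covers. Its centre lay 3003 bp from the start of anr-53 and nearer to that of fbxa-75. That math-18 is the only shared member thus depends on the deposited gene listing. Of the 4 F11 family peaks 1 overlapped an F14' peak (25%, 0.631 to 80.6%), against 52 of 91 other F11 peaks (57.1%, 46.3 to 67.5%). Of the 20 F14' family peaks 2 overlapped an F11 peak (interval 1.23 to 31.7%), against 52 of 619 (8.40%, 6.34 to 10.9%). Both tables are labelled as set against the same control, and the F11 table gives a false discovery rate of 100% to 94 of its 95 peaks, the 4 family peaks and the anr-53 peak among them. The F14' table was used without such a rate, and its folds are not set against those of F11 as a change in the mark.

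Some other genes of the ubiquitin machinery had F14' peaks, each in a promoter. The interval of their F14' share holds the share of all protein-coding genes and pseudogenes. Of 121 listed SKR, cullin, kelch, proteasome, ubiquitin and related genes, 5 had an F14' peak (4.13%, 1.36 to 9.38%, against 2.44% of protein-coding genes and pseudogenes) and 0 an F11 peak (up to 3.00%). They were rpt-2 and rpt-4, which encode ATPases of the proteasome cap (fold 2.40 with 422 tags, and 2.23 with 432), and the polyubiquitin gene ubq-1 (fold 2.40, 741 tags, score 191). The Skp1-type adaptor genes skr-9 and skr-13 shared 1 peak on chromosome IV (17163184 to 17164281, 326 tags, fold 2.13), which spans the start of skr-9. All 4 peaks were promoter peaks, and tags per kb ran from 284 at rpt-4 to 334 at ubq-1. This lies within the range of the F14' family peaks other than the 4 densest.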

How the data were processed

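H3K4me3 ChIP-seq peaks were analysed from 2 annotated tables, F11 and F14', of 1 library each. Build ce10, MACS 1.4.0rc2 and Bowtie2 2.1.0 are listed in the submitters' processing notes. Per the file headers, the deposited tables give whole-number tag counts without normalization, a fold ratio over the caller's background, a score of -10 log10 p and, in F11, an FDR in percent. The deposited class, distance and coordinates are in bp. The other 6 files hold plot titles only. The total depth per library is unknown, so precision can be judged only from tags inside peaks, 346 to 31515 tags each in F11 and 280 to 44316 in F14'.

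Rows were collapsed to unique intervals. Members were matched to RefSeq (WBcel235, used for names, biotypes, gene order and binning), 17 of 20 F14' members by accession and 3 by symbol, and all 4 in F11 by accession. Chromosome length was the highest coordinate in the tables. The computed background is the Poisson mean at which a peak's tags give its score. Every member with a peak is named, and other genes only where they share a peak or overlap, adjoin a member or belong to the ubiquitin list. The members and lists were chosen with earlier results of these data known. Alternatives were limits on score, fold and distance, nearest gene only, and other overlap rules. Planned sequence windows were not analysed here. Code was tested on simulated data. The tools were scipy 1.17.1, pandas 2.3.3, numpy 2.4.6 and matplotlib 3.10.9 under Python 3.11.15.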

Additional observations from a re-analysis of the deposited data

How the results depend on the processing

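Of 50 settings tried, 31 stayed within 1.5 times the reported count or median, or within the interval of the reported share, and 19 moved. Stricter limits leave fewer peaks by construction. At a score of at least 100, F14' kept 6 member genes in 5 peaks, with a median fold of 5.64 and a median of 771 tags per kb, F11 kept 0, the ubiquitin list kept 1 gene, and 0 F11 member peaks overlapped such F14' peaks. At a score of at least 50, F14' kept 12 genes in 11 peaks and F11 0. At a fold of at least 2, F11 kept 1 gene in 1 peak. Centres within 3 kb of a start left 13 F14' peaks, and within 1 kb 7 genes in 7 peaks in F14' and 2 in 2 in F11. Without the 4 F14' family peaks of highest fold, a setting chosen after seeing the data as were the limits to protein-coding members (18 and 4 genes) and to members nearest to the peak (19 and 4), the median fold was 2.23. Medians in F11 at a score of 50 or 100 could not be computed, as no peak was left. No paired analysis was possible because each group has 1 library. Libraries without replicates and unlisted tags outside peaks limit what a missing peak can show.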
